A study of Mus musculus with 6 samples.

Results

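The Hox genes of the mouse were followed in RNA labelled as total RNA from spermatogonia, the dividing precursors of sperm. Members were the probe sets with a single annotated gene symbol made of Hox, a cluster letter from a to d, and a number. The rule found 54 of 36701 probe sets, of which the U74Av2 chip holds 38 and U74Bv2 and U74Cv2 hold 8 each. They stand for 33 of 15964 genes with such a symbol.

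The animals were 1 week old and of mixed 129sv and c57Bl6 background. Null arrays carried RNA of mice with a Zfp145 knock out, and WT arrays that of mice without it. Zfp145, now named Zbtb16, encodes PLZF, a zinc finger repressor with a BTB domain. The 6 arrays comprise a Null and a WT array for each of 3 chips, which carry different probe sets. With 1 array per genotype and chip nothing was replicated, differences could not be checked against replicate error, and no test was made. That number of arrays sets the precision of all values. The labels give neither the part of Zfp145 that was deleted nor the number of animals behind an RNA.

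Hox genes encode homeodomain transcription factors and lie in 4 clusters, HoxA to HoxD. Within a cluster the number of a gene is its paralog position, and genes of low number are used toward the head and those of high number toward the tail and the limb tips. Polycomb proteins keep the clusters silent outside their domains, and Trithorax proteins and retinoic acid signalling keep them active. PLZF is known as a Hox regulator in the mouse limb, where it represses HoxD genes and brings Polycomb proteins to the cluster, and mice without it have changes of limb and vertebral pattern. Hoxa4 is known for transcripts in male germ cells of the mouse.

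The starts of Hoxb4 and Hoxd8 are shown because these were the genes with more than 1 probe set read above the floor, defined below, on both arrays. The windows run from 250 bases before to 50 bases after a RefSeq gene start on GRCm38.p6 and are written 5′ to 3′. Capitals mark the homeodomain core TAAT on either strand (TAAT or ATTA), with overlaps counted. Hoxb4 lies at chr11:96318017-96318316 on the + strand, and Hoxd8 at chr2:74704365-74704664 on the + strand.
Hoxb4: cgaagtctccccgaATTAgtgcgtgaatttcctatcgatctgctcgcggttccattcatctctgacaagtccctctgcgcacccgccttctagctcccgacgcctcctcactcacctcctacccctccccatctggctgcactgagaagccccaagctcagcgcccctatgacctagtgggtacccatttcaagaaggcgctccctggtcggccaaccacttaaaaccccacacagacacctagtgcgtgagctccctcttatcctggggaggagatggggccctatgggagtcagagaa
Hoxd8: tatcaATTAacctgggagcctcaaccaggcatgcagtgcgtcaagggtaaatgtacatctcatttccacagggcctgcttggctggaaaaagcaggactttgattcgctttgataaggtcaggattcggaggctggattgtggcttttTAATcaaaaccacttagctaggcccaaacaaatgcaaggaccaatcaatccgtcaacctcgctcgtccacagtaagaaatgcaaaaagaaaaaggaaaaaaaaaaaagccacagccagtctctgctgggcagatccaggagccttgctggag
The Hoxb4 window held 1 core and 14 CG dinucleotides, and that of Hoxd8 2 cores and 6 CG dinucleotides. The table held windows for 20 of the 33 genes. Over all 24 Hox windows in it, which include those of Hoxd3 and Hoxd4, 79.2% held a core and the median number of CG dinucleotides was 14.5. Over all 32851 windows of mouse genes the share with a core was 58.0% and the median number of CG dinucleotides 7. These letters describe the windows and show no binding.

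Intensities are given as deposited, on a linear scale. For ratios the Null array was scaled to the WT array, and values under a floor were raised to it. The floor was the 40th percentile of both arrays of a chip, with a value of 98.3 for U74Av2, 165 for U74Bv2 and 124 for U74Cv2. A probe set with 1 array at the floor gives a bound, and a probe set with both at the floor gives no ratio. A bound under 2-fold is not counted as 2-fold, although the difference itself may be larger. The level rank is the percentile of a signal among all probe sets of its array. Probe sets differ in how strongly they bind, so ranks order signals and not amounts of RNA between genes. In RNA from many cells, fewer cells of a type and less RNA per cell cannot be told apart.

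The targeted gene was lower in Null on both chips that read it above the floor. On U74Av2 the Zbtb16 probe set 92202_g_at, whose name carries a suffix, had 158.1 in Null and 770.2 in WT, a log2 ratio of -2.29. The other on that chip, 92201_at, read 16.7 in Null and 50.6 in WT, both at the floor. On U74Cv2 a Zbtb16 probe set had 510.8 in Null and 1156.8 in WT, a log2 ratio of -1.20. Whether these probe sets lie in the deleted part is not stated, so they check the labels only in part. Germ cell markers were present, with 9 of 9 above the floor on both arrays of at least 1 chip, but so were 9 of 9 Sertoli cell markers, 6 of 7 of the peritubular and fibroblast list, 4 of 5 of the Leydig cell list, 4 of 5 of the endothelial list, 4 of 5 of the macrophage list and 2 of 4 of the erythroid list. Of all probe sets counted singly, 57% on U74Av2, 55.7% on U74Bv2 and 52.9% on U74Cv2 lay above the floor on both arrays. For most of the marker lists the summed intensities differed in direction between chips. Chips carried unlike parts of a list, some a single gene, and a sum follows its brightest genes. Such a difference therefore does not show that the same markers disagree. The germ cell list had 9690.7 in Null and 7309.6 in WT on U74Av2 and 1471 in Null and 1226.1 in WT on U74Cv2, but 6181.5 in Null and 7819.8 in WT on U74Bv2. On U74Bv2 2 of its 4 genes were higher in Null and 2 lower, and Tex101 alone read 4485.2 in Null and 6444.5 in WT. On U74Av2 4 of its 5 measured genes were higher in Null and 1 lower. Dazl alone read 6372.8 in Null and 4287.3 in WT there, a log2 ratio of 0.56. The other Dazl probe set of U74Av2 went the other way, with a log2 ratio of -0.32. The Sertoli list had 33770.4 in Null and 38886.6 in WT on U74Av2 and 1291.3 in Null and 1310.9 in WT on U74Bv2, but 5511.3 in Null and 5269.5 in WT on U74Cv2. All 8 Sertoli genes on U74Av2 were lower in Null, Rhox5 the most, at 523.7 in Null and 1071.6 in WT (log2 ratio -1.04). Of the 8, 5 lay beyond the spread, defined below, where 40.2% of all probe sets above the floor on both arrays did. Over all probe sets above the floor on at least 1 array of that chip the median log2 ratio was -0.01. The share of them lower in Null was not computed. The 2 Sertoli genes on U74Cv2 had log2 ratios of -0.005 and 0.07. The peritubular and fibroblast list was higher in Null on U74Av2 (15475.5 in Null and 12984.2 in WT) and U74Cv2 (230.3 in Null and 142.8 in WT) and lower on U74Bv2 (8373.5 in Null and 10676 in WT). Of its 6 measured genes on U74Av2, 4 were higher in Null and 2 lower. Postn differed most there, at 566.7 in Null and 231.1 in WT, a log2 ratio of 1.29. Acta2 was the sole gene of this list on U74Cv2. The Leydig list was lower in Null on U74Av2 (1133 in Null and 1560.5 in WT) and U74Cv2 (294.8 in Null and 326 in WT) and higher on U74Bv2 (318.7 in Null and 262.7 in WT). Star was its sole gene on U74Bv2 and U74Cv2. The erythroid list was lower in Null on U74Av2 (2870.1 in Null and 4665.3 in WT). Its sum on U74Cv2 (436.8 in Null and 376 in WT) was higher only through Epb42, at the floor on both arrays. The measured erythroid gene of U74Cv2, Slc4a1, read 327 in Null and 341.5 in WT, a log2 ratio of -0.09. The macrophage list was lower in Null on both chips that carried it, U74Av2 (2432.6 in Null and 2599.1 in WT) and U74Cv2 (12860.5 in Null and 16610.8 in WT). The endothelial list was higher in Null on U74Av2 (1889.6 in Null and 1700.9 in WT) and U74Bv2 (280.3 in Null and 199.7 in WT), and its 1 gene on U74Cv2 was at the floor. Markers at the floor on every chip that carried them, or above it on a single array, were Insl3, Cnn1, Tek, Adgre1, Alas2 and Epb42. The part of cell makeup in the Hox values was not tested.

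Most Hox probe sets read low in both genotypes. Over the 3 chips 14 of 54 lay above the floor on both arrays, 5 on 1 array and 35 on neither. By gene, 12 of 33 had at least 1 probe set above the floor on both arrays. These were Hoxa4, Hoxb2, Hoxb4, Hoxb5, Hoxb8, Hoxb13, Hoxc8, Hoxc9, Hoxc10, Hoxd8, Hoxd9 and Hoxd10. Another 4 genes, Hoxb3, Hoxb6, Hoxb7 and Hoxc5, passed on a single array, and 17 were at the floor throughout.

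The share differed between chips. On U74Av2 5 of 38 Hox probe sets (13.2%) lay above the floor on both arrays, against 57% of all probe sets of that chip. On U74Bv2 it was 3 of 8 (37.5%), against 55.7% of all, and on U74Cv2 6 of 8 (75%), against 52.9% of all. The Hox probe sets of U74Av2 had a median level rank of 24.4 in Null and 27.7 in WT. On U74Bv2 it was 26.1 in Null and 48.7 in WT, and on U74Cv2 63.6 in Null and 61.3 in WT. At the floor on both arrays were 30 of 38 on U74Av2, against 37% of all, 3 of 8 on U74Bv2, against 35.7%, and 2 of 8 on U74Cv2, against 32.9%. U74Av2 thus held most Hox probe sets in its lower part, and U74Cv2 did not.

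**Figure D1:**
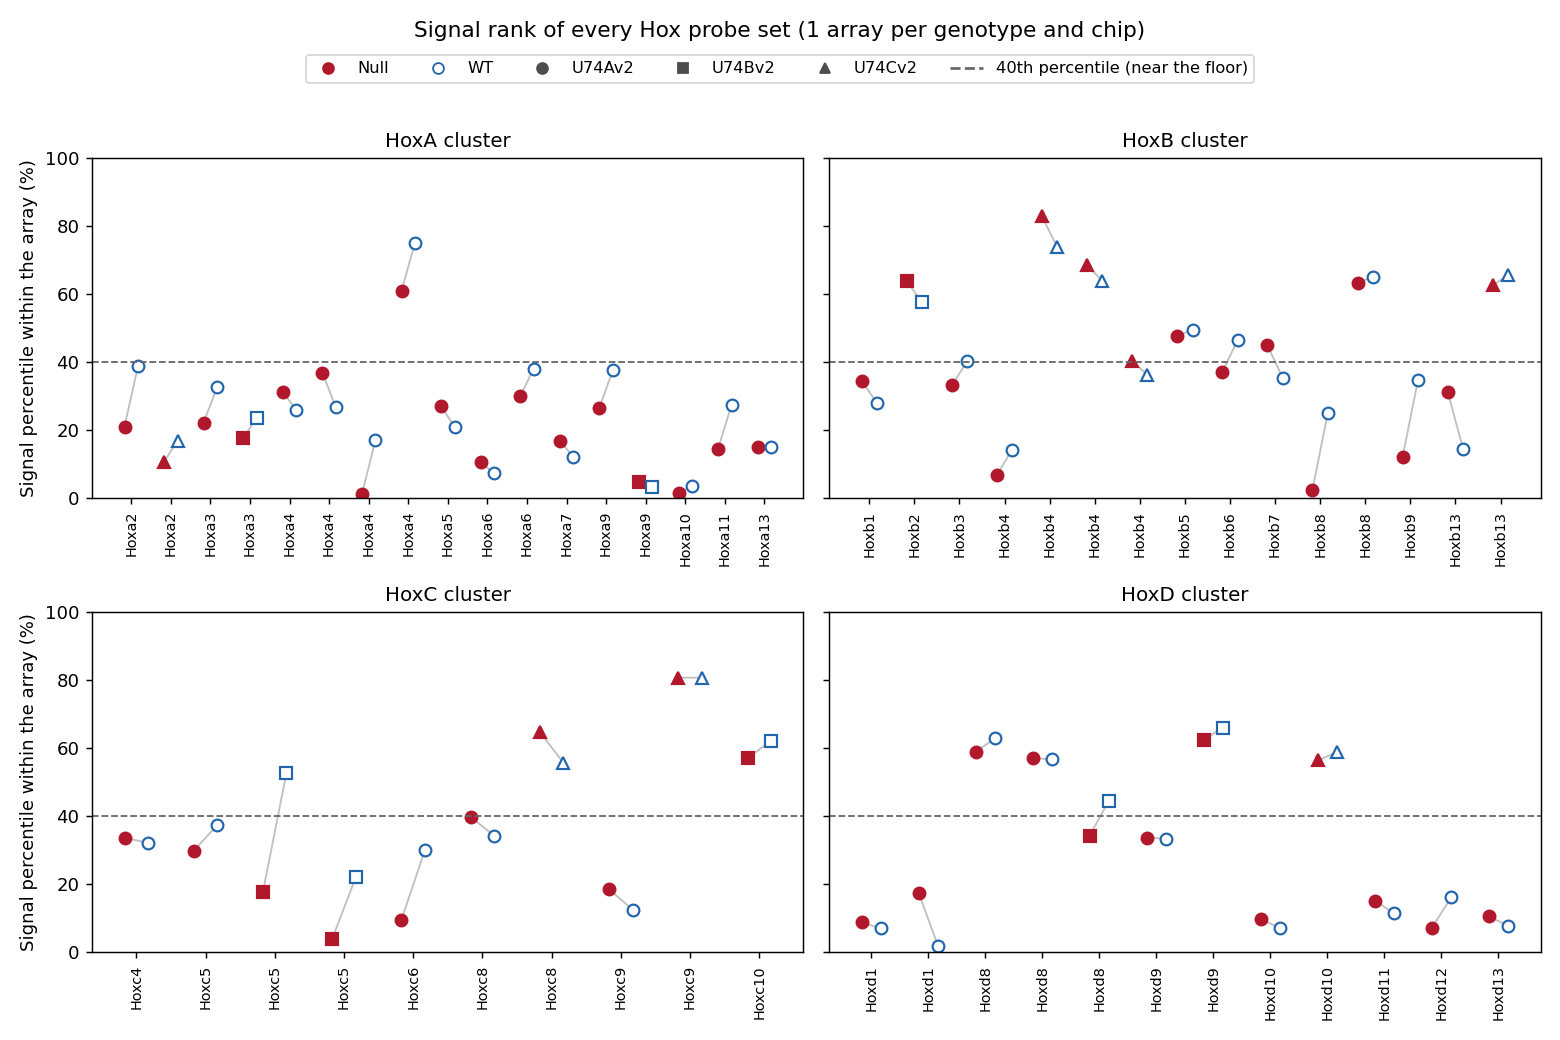
Level rank (percentile of signal within the array, vertical axis) of every Hox probe set in Null (filled) and WT (open), by cluster and paralog position along the horizontal axis, with the chip given by the marker shape. Of 17 HoxA probe sets, 16 lie under the dashed 40th percentile in both genotypes, and in the other clusters squares (U74Bv2) and triangles (U74Cv2) make up most of the points above it.

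By cluster, HoxA had the fewest probe sets above the floor on both arrays, 1 of 17, and HoxB had 6 of 15, HoxC 3 of 10 and HoxD 4 of 12. The median rank of HoxA over all chips was 17.8 in Null and 23.5 in WT, and that of HoxB 40.3 in Null and 40.1 in WT. HoxA was measured almost wholly on U74Av2, with 14 of its 17 probe sets, so cluster and chip are mixed in these counts. Within U74Av2 alone, 1 of 14 HoxA, 2 of 10 HoxB, 0 of 5 HoxC and 2 of 9 HoxD probe sets passed on both arrays.

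By paralog position, the central genes 4 to 8 had 8 of 27 probe sets above the floor on both arrays, the anterior genes 1 to 3 had 1 of 9 and the posterior genes 9 to 13 had 5 of 18. The posterior genes split by chip. On U74Av2 all 12 posterior probe sets were at the floor on both arrays, while 2 of 3 on U74Bv2 and 3 of 3 on U74Cv2 were above it on both.

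With the floor at the 40th percentile, Hoxa4 gave the 1 ratio or bound of at least 2-fold among the Hox probe sets. Its probe set 97747_r_at on U74Av2 read 308.3 in Null and 640.6 in WT, at the 60.8th percentile in Null and the 75.1st in WT. The log2 ratio was -1.06, or 2.09-fold lower in Null, against a spread of 0.21. The spread is a robust SD of log2 ratios among probe sets that share a gene and a chip, at a like level. On U74Av2 a probe set above the floor on 1 array or both is called measured here, and 0.575% of those were at least 2-fold lower in Null and 0.332% at least 2-fold higher. Of the 8 measured Hox probe sets there, 1 was 2-fold lower and 0 were 2-fold higher. This count depends on the floor. When it was lowered to the 20th percentile, 6 of 25 measured Hox probe sets of U74Av2 were at least 2-fold lower, against 4.57% of all measured, and 1 was higher, against 1.91%. Those shares are not matched for signal level, and Hox probe sets lay lower on that chip than its probe sets as a whole.

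The other 3 Hoxa4 probe sets on the same arrays did not read the gene above the floor. The probe set 97745_at had 77.1 in Null and 46.8 in WT. The probe set 162402_r_at had 52.9 in Null and 45 in WT, and 97746_f_at had 1.8 in Null and 23.7 in WT. Below the floor these values have no order. The Hoxa4 difference thus rests on 1 of 4 probe sets, and its name carries a suffix that marks a relaxed probe design.

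Among anterior genes Hoxb2, which patterns the hindbrain, was the sole one above the floor on both arrays. On U74Bv2 it read 442.1 in Null and 343.5 in WT, a log2 ratio of 0.36 against a spread of 0.36. Hoxb3 on U74Av2 read 60.4 in Null and 103.2 in WT, just above the floor in WT, and its bound was at least 1.05-fold lower in Null. Hoxa2, a gene of the branchial arches, read 25.1 in Null and 96.4 in WT on U74Av2, and 22.9 in Null and 38.5 in WT on U74Cv2, all at the floor. Hoxa3, needed for the thymus and parathyroid, was likewise at the floor on U74Av2 and U74Bv2, as were Hoxb1 and both probe sets of Hoxd1 on U74Av2.

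Of the central genes, Hoxb4, known for expanding blood stem cells, was higher in Null in both of its probe sets above the floor. On U74Cv2 132496_f_at read 903.6 in Null and 559.5 in WT, a log2 ratio of 0.67 against a spread of 0.42. The suffix in its name marks probes shared with similar sequences. The probe set 135977_at, whose name carries no such suffix, read 456.6 in Null and 360.4 in WT, a log2 ratio of 0.32, inside that spread. The probe set 168838_r_at read 125.6 in Null and 105.7 in WT, and after scaling its Null value lay just under the floor. The remaining Hoxb4 probe set, on U74Av2, read 6.4 in Null and 19.1 in WT. Neither ratio reached 2-fold, which 5.68% of the measured probe sets of U74Cv2 did upward and 5.46% downward, against 0 of 6 Hox probe sets in either direction.

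Hoxd8 had 2 probe sets above the floor on both U74Av2 arrays. One read 280.2 in Null and 344.6 in WT, a log2 ratio of -0.31, and the other 252.3 in Null and 250.4 in WT, a log2 ratio of 0.00. Both lay inside the spread of 0.39. On U74Bv2 its probe set read 124.7 in Null and 203.7 in WT, at the floor in Null, and at least 1.23-fold lower there. The Hoxd8 signals were thus near each other between genotypes in the pair of probe sets that measured both.

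Hoxb8, known for its role in a myeloid lineage and in grooming, read 350 in Null and 383.7 in WT in 96418_r_at on U74Av2, a log2 ratio of -0.14. The other Hoxb8 probe set read 2.9 in Null and 42.2 in WT, both at the floor. Hoxb5 read 148.6 in Null and 171 in WT, a log2 ratio of -0.21. Both ratios lay inside the spread at their level, 0.21 for Hoxb8 and 0.39 for Hoxb5. Hoxb6 read 78.6 in Null and 144.7 in WT, at least 1.47-fold lower in Null, and its neighbour Hoxb7 read 126.1 in Null and 79.6 in WT, at least 1.27-fold higher in Null. A probe set shared by Hoxb8 and Hoxb7, outside the rule, read 136.9 in Null and 209.6 in WT, a log2 ratio of -0.62 and thus opposite in sign to that of Hoxb7.

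Hoxc8, a gene of thoracic identity, read 385.8 in Null and 254.2 in WT on U74Cv2. Its log2 ratio of 0.58 was close to the spread of 0.58 at low level on that chip. Its U74Av2 probe set read 93.4 in Null and 74.5 in WT, under the floor. Hoxc5 on U74Bv2 read 44.4 in Null and 283.2 in WT, at least 1.71-fold lower in Null. A further Hoxc5 probe set of that chip read 10.1 in Null and 59.4 in WT, and the one on U74Av2 48.9 in Null and 89.8 in WT, and neither passed the floor. Of the 5 measured Hox probe sets of U74Bv2, 0 had a ratio or bound of at least 2-fold, where 0.815% of all measured probe sets were higher and 1% lower in Null. The bound of Hoxc5 may hide a larger difference. With a lower floor, at the 20th percentile, Null was still at the floor and the bound was a log2 ratio of -2.44. Hoxc5 was then the 1 of 7 measured Hox probe sets that was at least 2-fold lower, against 4.77% of all, with 0 higher, against 4.66%.

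The other central genes, Hoxa5, Hoxa6, Hoxa7, Hoxc4 and Hoxc6, were read by 6 probe sets of U74Av2, all at the floor on both arrays. Their intensities lay between 9 and 62.6 in Null and between 9.8 and 92.6 in WT.

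The posterior genes above the floor on U74Bv2 and U74Cv2 had ratios inside the spread. Hoxd9 read 424.8 in Null and 477.3 in WT, a log2 ratio of -0.17, and Hoxc10 343.6 in Null and 408.9 in WT, a log2 ratio of -0.26. Both were on U74Bv2, with spreads of 0.31 and 0.36. On U74Cv2 Hoxb13, a gene of the tail and prostate, read 351.8 in Null and 390 in WT, a log2 ratio of -0.17. Hoxd10 read 269.3 in Null and 291.8 in WT, a log2 ratio of -0.14. Hoxc9 read 802.6 in Null and 787.7 in WT, a log2 ratio of 0.00. The spread on that chip was 0.58 at the level of Hoxb13 and Hoxd10 and 0.42 at that of Hoxc9.

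The posterior HoxD genes known for limb patterning were at the floor in both genotypes on U74Av2. Hoxd11 read 15.4 in Null and 15.2 in WT, Hoxd12 6.8 in Null and 22.3 in WT, and Hoxd13, the digit gene, 10 in Null and 10.4 in WT. A difference in these genes was not detectable at this signal. Hoxa9, Hoxa10, Hoxa11, Hoxa13 and Hoxb9 were at the floor as well, with intensities between 2 and 38.7 in Null and between 5.4 and 90.3 in WT on U74Av2. On that chip Hoxb13 read 53 in Null and 19.6 in WT, Hoxd9 62.8 in Null and 71.1 in WT, Hoxc9 20.5 in Null and 16.8 in WT, and Hoxd10 9.3 in Null and 9.6 in WT. Hoxa9 read 11.4 in Null and 9.2 in WT on U74Bv2, at the floor there too.

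**Figure D2:**
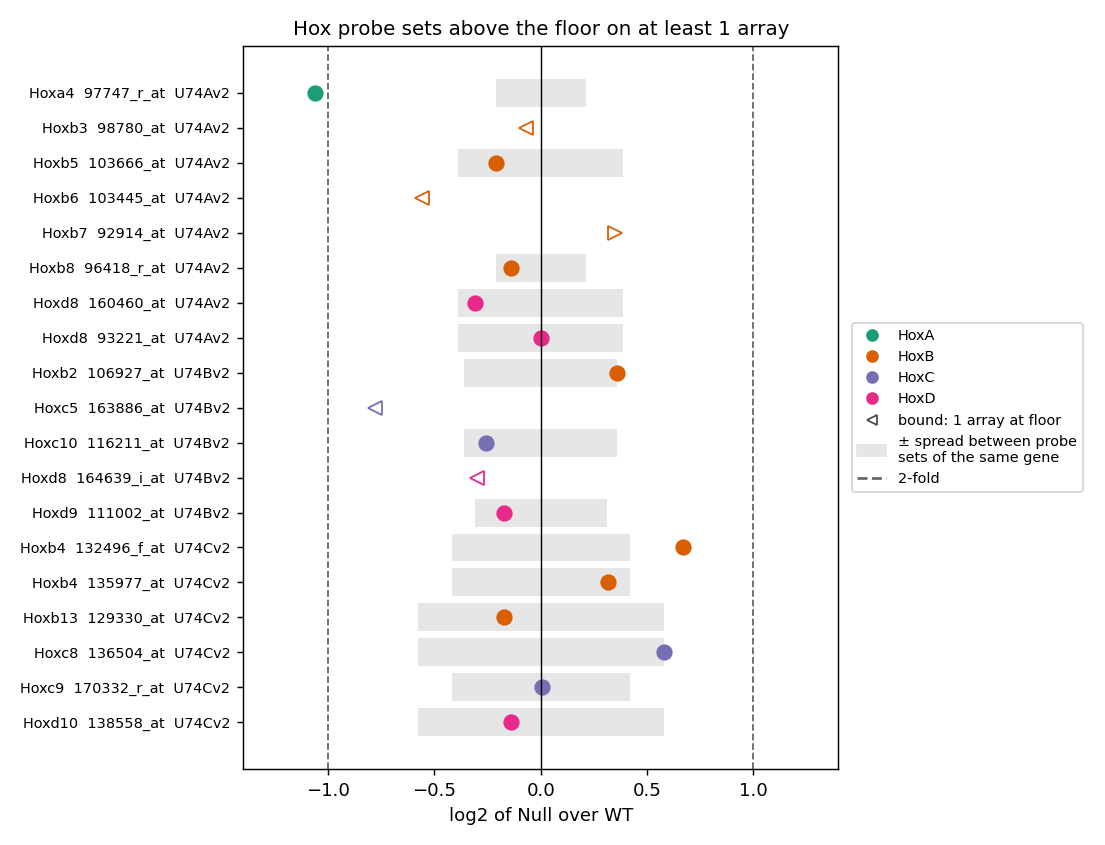
The log2 ratio of Null over WT (horizontal axis) of the 19 measured Hox probe sets, coloured by cluster, with open triangles for bounds (1 array at the floor) and grey bars for the spread among probe sets that share a gene. Hoxa4 at -1.06 is the point beyond the dashed 2-fold lines, and Hoxb4 at 0.67 is the other filled point outside its grey bar.

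Among the 14 Hox probe sets above the floor on both arrays, 6 log2 ratios were above 0 and 8 below, and 2 exceeded the spread at their level, those of Hoxa4 and Hoxb4. These were 1 of 5 on U74Av2, where 40.2% of all probe sets above the floor on both arrays did so, 0 of 3 on U74Bv2, against 35.6%, and 1 of 6 on U74Cv2, against 36.1%. Both of these names carry a suffix, and of the 10 Hox probe sets without one that were above the floor on both arrays, 0 exceeded the spread. That count of 0 rests on narrow margins. Hoxb2 stood at 0.359 against a spread of 0.360, and Hoxc8 at 0.578 against 0.579. The share among all probe sets without a suffix was not computed. The measured Hox probe sets had a median log2 ratio of -0.18 over 8 on U74Av2, -0.26 over 5 on U74Bv2 and 0.16 over 6 on U74Cv2. For all measured probe sets the medians were -0.01 on U74Av2, 0.00 on U74Bv2 and -0.01 on U74Cv2. The Hox medians did not share a sign between chips.

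Ratios at a shared paralog position varied as well. At position 4 the log2 ratios ran from -1.06 for Hoxa4 to 0.67 for Hoxb4, with Hoxc4 at the floor. At position 8 they ran from -0.31 for Hoxd8 to 0.58 for Hoxc8. At position 9 Hoxd9 stood at -0.17 and Hoxc9 at 0.00, and at position 10 Hoxc10 stood at -0.26 and Hoxd10 at -0.14. These paralogs were mostly read on different chips, so gene and chip cannot be told apart in such pairs.

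A gene could be at the floor on one chip and well above it on another. U74Av2 and U74Cv2 both carried 6 Hox genes, none of them above the floor on both U74Av2 arrays. On U74Cv2 5 of the 6, Hoxb4, Hoxb13, Hoxc8, Hoxc9 and Hoxd10, were above it on both arrays, and Hoxa2 was not. Of all 564 genes in the same situation, 58.3% were above it on U74Cv2. Between U74Av2 and U74Bv2 it was 1 of 4 Hox genes, Hoxd9, against 51.8% of 616 genes. Hoxc9 is an example. It lay at the 18.5th percentile in Null and the 12.6th in WT on U74Av2, and at the 80.7th percentile in both genotypes on U74Cv2. Both of these Hoxc9 probe sets carry a suffix in their names (92891_f_at and 170332_r_at), unlike those of Hoxd10. Hoxd10 lay at the 9.91st percentile in Null and the 7.09th in WT on U74Av2, and at the 56.4th in Null and the 58.9th in WT on U74Cv2. Hoxa2, Hoxa3 and Hoxa9 were at the floor on both chips that carried them. What sets these chips apart for the same gene was not tested.

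**Figure D3:**
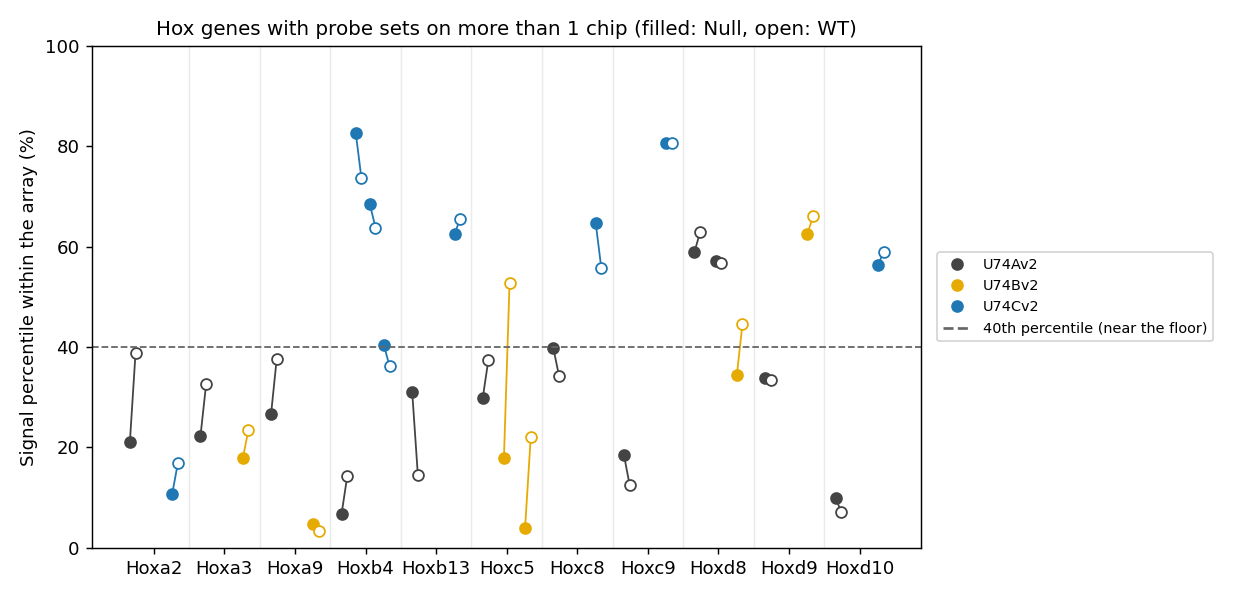
Level rank (percentile of signal within the array, vertical axis) of the Hox genes with probe sets on more than 1 chip, Null filled and WT open, coloured by chip. Hoxb4, Hoxb13, Hoxc8, Hoxc9 and Hoxd10 lie under the dashed line on U74Av2 and, but for 1 Hoxb4 probe set close to the line, above it on U74Cv2.

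The Hox probe sets that neither U74Av2 array read above the floor, 30 in number, depend most on how low signals are treated. As scaled and with no floor, 19 of the 30 were lower in Null, with a median log2 ratio of -0.21. All 4600 probe sets of that chip in the same position had a median of -0.27, and 62.8% of them were lower in Null, so the low end of the chip as a whole read lower in Null. With the ratios fitted by loess on level, 15 of the 30 were lower in Null and the medians were 0.05 for the Hox probe sets and 0.00 for all of them. With no floor at all, 12 of 38 Hox probe sets of U74Av2 were at least 2-fold lower in Null, where 10.6% of all were, and 2 were at least 2-fold higher, where 4.59% of all were. These shares are not matched for signal level, as 30 of the 38 were at the floor on both arrays, against 37% of all. The share among the 4600 alone was not computed. On U74Bv2 without a floor 2 of 8 were at least 2-fold lower, where 8.62% of all were, and 0 higher, where 8.66% were. The lowest ratios on U74Av2, those of Hoxb8 96417_s_at at 2.9 in Null and 42.2 in WT and Hoxa4 97746_f_at at 1.8 in Null and 23.7 in WT, lie far under the floor.

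**Figure D4:**
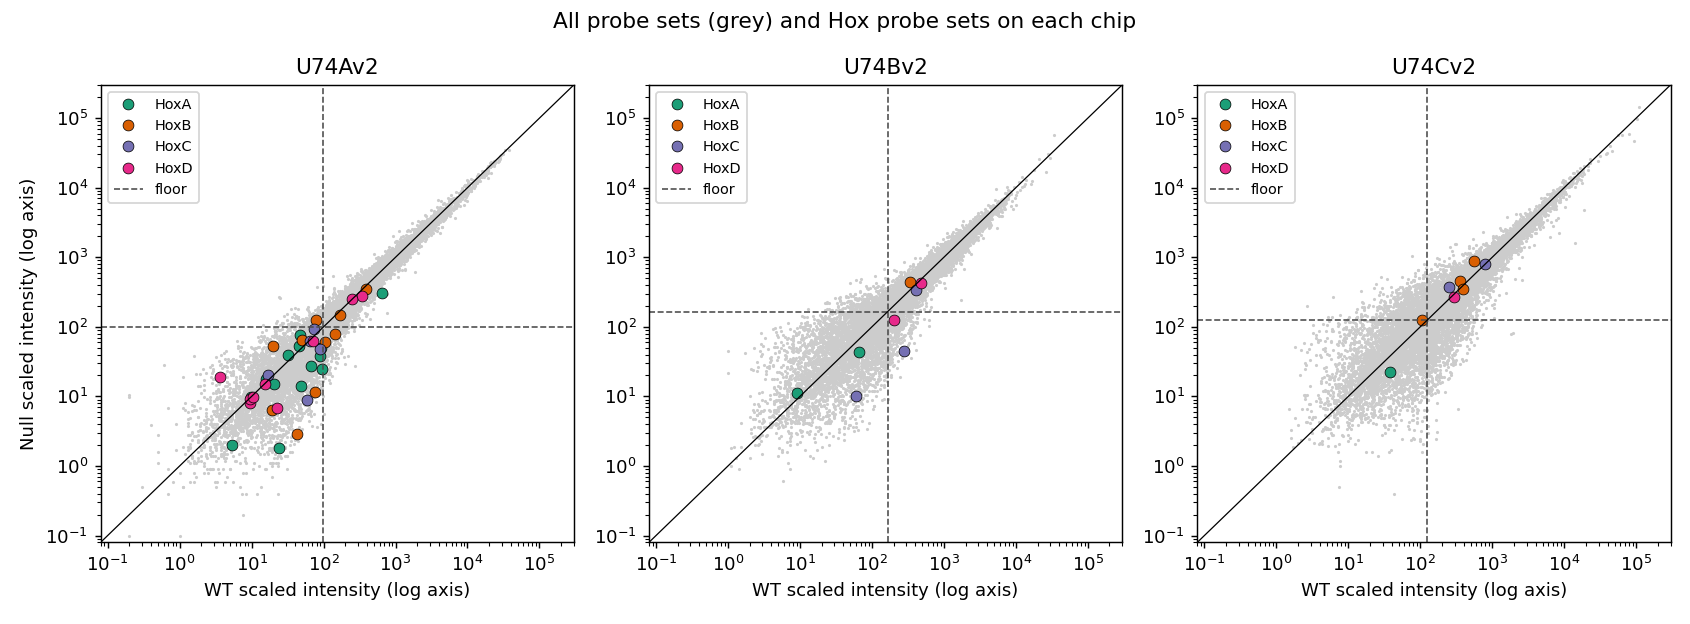
Scaled intensity in Null (vertical, log axis) against WT (horizontal, log axis) for all probe sets of each chip in grey, with Hox probe sets coloured by cluster and floors dashed at 98.3, 165 and 124. Most Hox points of U74Av2 fall in the lower left square, where the grey cloud is wide and extends further below the diagonal than above it, and those of U74Cv2 mostly lie above the floor.

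Genes around the clusters were above the floor more often than the Hox genes on U74Av2 but not on U74Cv2. Of 12 flanking genes carried by U74Av2, 12 were above the floor on both arrays in their brightest probe set, against 4 of 31 Hox genes by the same count. On U74Bv2 it was 3 of 6 flanking genes against 3 of 7 Hox genes, and on U74Cv2 5 of 9 against 5 of 6. Of all probe sets counted singly, 57% on U74Av2, 55.7% on U74Bv2 and 52.9% on U74Cv2 were above it on both arrays. Tax1bp1, beyond the HoxA cluster, read 5477.1 in Null and 5200.9 in WT, and Mtx2, beyond HoxD, 1376.4 in Null and 1445.6 in WT. The median log2 ratio of the 12 was 0.05. On U74Cv2 Skap1, beside HoxB, read 42.1 in Null and 252.3 in WT, at least 2.03-fold lower in Null. Snx10, on the HoxA side, read 121.3 in Null and 252.7 in WT there, at least 2.04-fold lower. These were the 2 of 7 measured flanking genes of that chip at least 2-fold lower, against 5.46% of all measured probe sets. None was 2-fold higher, against 5.68%. The same Snx10 read 196.2 in Null and 144.9 in WT on U74Av2, a log2 ratio of 0.43, in the other direction. Evx1 and Evx2, homeobox genes at the ends of HoxA and HoxD, were at the floor on both U74Av2 arrays, as were the Hox-inducing genes Cdx1, Cdx2 and Cdx4 and the related Gsx1 and Pdx1.

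The TALE homeodomain proteins bind DNA together with Hox proteins. Of 8 such genes on the chips 5 were above the floor on both arrays of at least 1 chip, and 1 was at least 2-fold different. Pbx4, on U74Bv2, read 151.3 in Null, at the floor, and 412.3 in WT, at least 2.50-fold lower in Null. Of all measured probe sets of U74Bv2, 1% were at least 2-fold lower in Null and 0.815% higher. On U74Av2 0.575% were lower and 0.332% higher, and on U74Cv2 5.46% were lower and 5.68% higher. Pbx3 on U74Av2 read 681.1 in Null and 774.8 in WT, a log2 ratio of -0.19. Meis1 was at the floor on U74Av2, while on U74Cv2 it read 425.8 in Null and 580.7 in WT, a log2 ratio of -0.47. The count of 5 of 8 takes a gene on any chip. Counted singly, 57% of all probe sets on U74Av2, 55.7% on U74Bv2 and 52.9% on U74Cv2 were above the floor on both arrays.

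Most regulators of the clusters were read above the floor. Of 14 Polycomb genes on U74Av2, 13 were above it on both arrays in their brightest probe set, against 57% of all probe sets counted singly. The 13 had a median log2 ratio of 0.11, and 0 Polycomb genes were at least 2-fold different on any chip. Of all measured probe sets, 0.575% were at least 2-fold lower and 0.332% higher on U74Av2. The shares were 1% lower and 0.815% higher on U74Bv2, and 5.46% lower and 5.68% higher on U74Cv2. Their log2 ratios on U74Av2 ran from -0.90 for Ring1, which read 180.9 in Null and 336.3 in WT, to 0.61 for Cbx2, which read 1364.5 in Null and 888.4 in WT. Of the 13, 7 lay beyond the spread at their level, where 40.2% of all did, and these included Rnf2 at -0.48 and Bmi1 at 0.50. Another Rnf2 probe set above the floor on both U74Av2 arrays had a log2 ratio of 0.01. Jarid2, a partner of the H3K27 methyltransferase complex, read 2232.2 in Null and 2072.8 in WT on U74Av2, a log2 ratio of 0.10. It was brighter on U74Cv2, at 12959.1 in Null and 9567.3 in WT. The log2 ratio there was 0.41, beyond the spread of 0.26 at that level. The U74Bv2 probe set of Jarid2 read 1163.6 in Null and 1243.5 in WT, a log2 ratio of -0.10, inside the spread of 0.24. Eed, a core subunit of the H3K27 methyltransferase complex, read 1436.2 in Null and 1324.7 in WT on U74Av2. All 4 Trithorax genes on U74Av2 were above the floor, with log2 ratios from -0.21 for Men1 to 0.26 for Wdr5. Kmt2a, the methyltransferase that maintains Hox activity, read 1073.9 in Null and 972.1 in WT. Ash2l, a subunit of its complex, was at least 2.26-fold higher in Null on U74Cv2, at 284.9 in Null and 76.8 in WT, but read 420.8 in Null and 457.1 in WT on U74Av2.

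Retinoic acid induces anterior Hox genes through nuclear receptors. Of 10 genes of retinoid receptors and enzymes on the chips, 7 were above the floor on both arrays of at least 1 chip, and 0 were at least 2-fold different on any. The count of 7 too takes a gene on any chip, while 57%, 55.7% and 52.9% of all probe sets passed on U74Av2, U74Bv2 and U74Cv2. On these chips in turn, 0.575%, 1% and 5.46% of all measured probe sets were at least 2-fold lower in Null. The shares at least 2-fold higher were 0.332%, 0.815% and 5.68%. Aldh1a1, which makes retinoic acid, read 11425.8 in Null and 12640.8 in WT on U74Av2, a log2 ratio of -0.15. The receptor gene Rara read 5196.6 in Null and 6013.1 in WT on U74Bv2, a log2 ratio of -0.22, although its probe set on U74Av2 was at the floor.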

How the data were processed

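The authors deposited linear intensities, 1 per probe set and array. No source used here names the software or background correction. The trimmed mean was 500.1 or 500.3 on every array, which shows scaling before deposit. Gene names came from GEO's platform annotation, and the 33 Hox genes matched RefSeq by Entrez identifier. Control probe sets were left out. Per chip, the Null array was divided by its median ratio to WT over the upper 50% of mean rank (log2 shifts of 0.01, 0.00 and 0.02). A floor at the 40th percentile was set, then log2 of Null over WT was taken. With 1 array per genotype and chip there was no test, and ratios past 2-fold were counted. The spread is 1.4826 times the median absolute gap in log2 ratio between pairs of probe sets of one gene on one chip, over the square root of 2, by level. It is no replicate error.

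All Hox probe sets were accounted for, with both intensities for the measured ones. Of the lists other than markers, up to 4 members at least 2-fold different or the brightest were named. Marker lists were given by counts and sums, with members at least 2-fold different and some others named. Values of some further probe sets were given after they were seen. Members and lists were chosen with earlier results of these data known. Python 3.11.15 was used with statsmodels 0.14.6, numpy 2.4.6 and pandas 2.3.3, and calculations were tested on simulated data. Alternatives were other scalings, floors, thresholds and plain probe sets alone.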

Additional observations from a re-analysis of the deposited data

How the results depend on the processing

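No paired analysis was possible because each genotype has 1 array per chip. The Hox counts depended on the floor. On U74Av2 19 Hox probe sets were above the floor on both arrays with the floor at the 20th percentile and 2 with it at the 60th, against 5, and 3 of 29 with plain probe sets alone, whose names carry no suffix. The shares of all probe sets were 75.3%, 38.2% and 60.3%. On U74Bv2 1 was above it at the 60th percentile, against 3, where 37% of all were. At least 2-fold higher on U74Av2 were 1 with the floor at the 20th percentile and 2 with no floor, against 0, where 1.91% and 4.59% of all measured were. At least 2-fold lower on U74Av2 were 6 with the floor at the 20th percentile and 12 with no floor, against 1, where 4.57% and 10.6% of all were, and 0 with plain probe sets alone, where 0.44% were. These shares are not matched for signal level. On U74Bv2 1 was lower at the 20th percentile and 2 with no floor, against 0, where 4.77% and 8.62% of all were. At 3-fold 0 were lower on U74Av2, where 0.0384% of all were. At 1.5-fold 1 was lower on U74Bv2, where 5.55% of all were, and 1 higher on U74Cv2, where 13.7% were. The medians per chip kept their sign under every alternative that was run. That of U74Cv2 was 0.16 and came to 0.02 after quantile normalization and 0.03 after loess or as deposited. Of 106 recomputed ratios of single Hox probe sets, 100 moved by less than the spread. The other 6, of Hoxb3, Hoxc5 and Hoxd8 with 1 array at the floor, went further below 0 with a lower floor or none. For Hoxc5 on U74Bv2 the bound of -0.78 became -2.44 at the 20th percentile and -2.68 with no floor. Part of the 100 agree by construction, since a lower floor or none cannot change a ratio already above it on both arrays. Probe sets that fell to the floor on both arrays were left out, which left 11 ratios at the 60th percentile, against 19 in each other setting. Signals near the floor limit most of the Hox genes.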

Other observations

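Probe sets of antisense or shared Hox transcripts lay outside the rule and were singled out after their values were seen. The brightest signal from a Hox cluster came from Hoxa11os, a transcript antisense to Hoxa11. Its probe set 170060_r_at on U74Cv2 read 4794.6 in Null and 4335.4 in WT, at the 97.9th percentile in Null and the 97.4th in WT, with a log2 ratio of 0.12. The Hoxa11os probe sets of U74Av2 read 77.9 in Null and 56.7 in WT, and 13.5 in Null and 20.3 in WT, all at the floor, and Hoxa11 itself read 14.3 in Null and 49 in WT. The bright value thus rests on 1 of 3 probe sets, and its name carries a suffix for a relaxed design.

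Of the pair of U74Av2 probe sets shared by Hoxd4 and Hoxd3, one read 136.7 in Null and 98.3 in WT, with WT at the floor and so at least 1.38-fold higher in Null, and the other read 44.5 in Null and 66.8 in WT, both at the floor. Hoxd3os1, Hoxb5os and the probe set shared by Mira and Hoxa7 were at the floor on both arrays of their chips.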
